A study of Mus musculus with 2 samples.

Results

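Alx1 and Lrriq1, adjacent genes on mouse chromosome 10, and Higd1c and Methig1, overlapping genes on chromosome 15, were examined in ureters of embryos at stage E14.5. The first pair gave more signal and the second pair less in RNA labelled Gata2cKO than in control RNA. The 4 genes were chosen by these values, the log2 ratios of both RNAs, for their shared direction within a pair. Found by symbol or RefSeq transcript, they have 5 of the 39429 probes on the array. Of the probes, 4 passed the filter on low signal, 1 for each gene, among 20507 genes tested. The values that chose the genes are given as a description, without a test.

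Expression was measured on 2 two-colour Agilent arrays, each hybridised with 1 Gata2cKO and 1 control RNA. The Gata2cKO embryos were Tbx18(cre/+);Gata2(fl/fl). In them Cre recombinase is made from 1 Tbx18 allele, in the mesenchyme around the ureter, and both Gata2 alleles are flanked by loxP sites. The controls were Tbx18(+/+);Gata2(fl/?), with no Cre. Their label writes 1 Gata2 allele as floxed and the other as a question mark. All embryos were on the NMRI background. By their labels both RNAs were female on array 1 and male on array 2, and sex below means the labelled sex. The dyes were exchanged: Gata2cKO RNA carried Alexa Fluor 647 and control RNA 555 on array 1, and the reverse held on array 2. Sex therefore changes together with the dyes, and the 2 cannot be told apart. The Cre-bearing Tbx18 allele cannot be told apart from loss of Gata2. The labels do not say how many embryos were pooled or whether the 2 arrays came from separate litters. The p-values therefore rest on the spread between these arrays only, drawn toward a spread pooled over all genes.

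Over the whole array, the median non-control spot signal was 754 (Gata2cKO) and 433 (control) on array 1, and 428 (Gata2cKO) and 754 (control) on array 2. In each channel, 66% to 69.4% of spots exceeded background clearly. The probe of the targeted gene, Gata2, showed no decrease in Gata2cKO RNA, with a log2 ratio of 0.33 on array 1 and 0.54 on array 2 (limma adjusted p = 0.41). Whether that probe lies in the floxed part of the gene was not determined, so it does not check the labels, and Gata2cKO below means the RNA so labelled. For the labelled tissue, markers of smooth muscle (5 of 5), ureteric mesenchyme (4 of 4) and urothelium (5 of 5) passed the filter. In bulk tissue, fewer cells of a type and less RNA per cell cannot be told apart.

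Alx1 encodes a paired-type homeodomain transcription factor of the aristaless-like family, known for its role in head mesenchyme and in closure of the cranial neural tube. Lrriq1 encodes a protein with leucine-rich repeats and IQ motifs, which in other proteins bind calmodulin. Higd1c belongs to the HIG1 domain family, small mitochondrial proteins that associate with the respiratory chain, and in mice it has been described in the oxygen-sensing glomus cells of the carotid body. Methig1 is a readthrough transcript that joins Mettl7a2, a methyltransferase-like gene, to Higd1c, and the array design names it Mettl7a2-Higd1c.

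The probes decide which transcripts could be seen, so a stretch of each is shown 5′ to 3′ as the array design gives it. The probe of Lrriq1 variant 1 is shown whole because it spans an intron, and 30 bases are shown of the others. Capitals in the Methig1 stretch mark the first of 2 overlapping AATAAA polyadenylation hexamers.
Alx1: tgtatttgcatggatatctgggcacagttt
Lrriq1 variant 1: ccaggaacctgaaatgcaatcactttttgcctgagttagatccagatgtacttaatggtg
Lrriq1 variant 2: ccattctccagtatggcccttggaaatctt
Higd1c: aatcctcatagaatctgtatctcacgatgc
Methig1: actcacacacacccaAATAAAtaaatcttc
By the coordinates in the scanner files (mm9), the Alx1 probe lies on the minus strand at chr10:102471172-102471231. The variant 1 probe of Lrriq1 lies on the same strand at chr10:102531554-102533699, so its 60 bases span 2146 bases of genome, which places it across an exon junction. The variant 2 probe lies farther from Alx1, at chr10:102677072-102677131, also on the minus strand. The Higd1c probe lies on the plus strand at chr15:100214327-100214386 and the Methig1 probe at chr15:100214807-100214866, 480 bases further along. No gene annotation of mm9 was used here, so exons and UTRs were not assigned beyond this.

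The Higd1c and Methig1 values are not separate measurements of separate genes. The scanner files list RefSeq transcripts of both Higd1c and Methig1 for the Higd1c probe, and of Methig1 alone for the Methig1 probe. Signal on the Higd1c probe therefore cannot be divided between them, and the Higd1c transcript has no probe of its own. Such double listings were uncommon: 659 of 26497 probes with a RefSeq transcript (2.49%) list more than 1 gene. In the RefSeq annotation of GRCm38.p6, Methig1 encloses both Mettl7a2 and Higd1c and shares its first base with Mettl7a2. In the same annotation the predicted gene Gm34298 starts between the starts of Alx1 and Lrriq1, and no probe is named for it.

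Alx1 had the higher signal in Gata2cKO RNA on both arrays. Its mean spot signal, in the scanner's brightness units, was 9020 (array 1) and 4899 (array 2) in Gata2cKO RNA, against 2064 (array 1) and 3514 (array 2) in control RNA. The raw ranges did not overlap, although dye brightness differs between channels. How many of all probes separate in this way was not counted. The members were picked for their ratios, so the lack of overlap, here and below, is a description only. After normalization the log2 levels were 12.7 on both arrays in Gata2cKO RNA and 11.4 on both in control RNA. The log2 ratio of Gata2cKO over control was 1.31 on each array, or 2.48-fold (SD of the log2 ratio 0.00334, n = 2).

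Lrriq1 had the same direction, but on its variant 1 probe alone. That probe's signal was 1752 (array 1) and 1109 (array 2) in Gata2cKO RNA, against 364 (array 1) and 646 (array 2) in control RNA, again without overlap. Its log2 ratios were 1.42 on array 1 and 1.57 on array 2 (mean 1.5 ± 0.106, SD, n = 2), or 2.82-fold. The variant 2 probe was not well above background in any of the 4 channels. It read 226.5 (array 1) and 110 (array 2) in Gata2cKO RNA, against 128 (array 1) and 189 (array 2) in control RNA, and no fold is given for it. The Lrriq1 value therefore describes transcripts that carry the variant 1 junction, and variant 2 was not detectable at this signal. The variant 2 probe lies 143372 bases from that of variant 1 on the genome.

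Higd1c and Methig1 probes had the lower signal in Gata2cKO RNA on both arrays. The Higd1c probe read 334 (array 1) and 188 (array 2) in Gata2cKO RNA, against 756 (array 1) and 1314 (array 2) in control RNA. All 4 readings were well above background, and the 2 Gata2cKO readings lay below both control readings. Its log2 ratios were -1.89 (array 1) and -1.90 (array 2). They averaged -1.90 ± 0.00680 (SD, n = 2), or 3.72-fold lower in Gata2cKO.

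The Methig1 probe read 353 (array 1) and 215 (array 2) in Gata2cKO RNA, against 751 (array 1) and 1082 (array 2) in control RNA. These readings did not overlap either. Its log2 ratios were -1.87 (array 1) and -1.51 (array 2). They averaged -1.69 ± 0.252 (SD, n = 2), or 3.23-fold lower in Gata2cKO. The Higd1c probe minus the Methig1 probe gave a difference in log2 ratio of -0.02 on array 1 and -0.39 on array 2. The 2 probes were thus nearly alike on the female array and further apart on the male one.

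**Figure D1:**
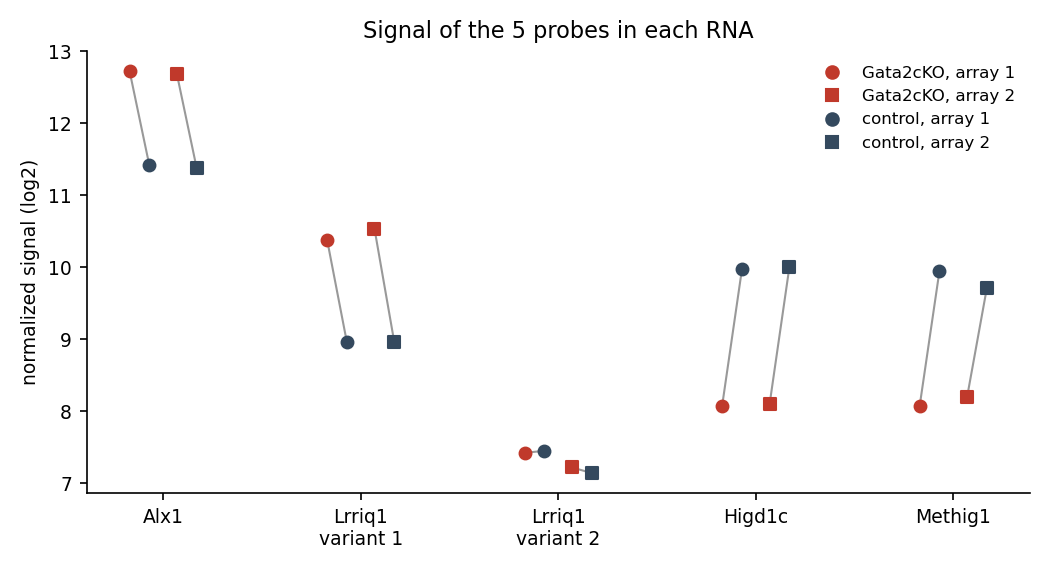
Normalized log2 signal (loess within arrays, then Aquantile) of the 5 member probes in Gata2cKO RNA (red, left of each pair) and control RNA (dark), on array 1 (circles) and array 2 (squares). Alx1 and Lrriq1 variant 1 are higher in Gata2cKO RNA, Higd1c and Methig1 are lower, and Lrriq1 variant 2 lies near background. Heights of different probes are not comparable.

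The exchange of dyes allows the RNAs to be set against each other within a dye, across the arrays. The log2 ratio of background-subtracted signals, not normalized otherwise, was 1.37 for Alx1 in the 647 dye and 1.26 in the 555 dye. It was 1.53 (647) and 1.70 (555) for Lrriq1 variant 1. It was -2.18 (647) and -2.17 (555) on the Higd1c probe, and -1.87 (647) and -2.02 (555) on the Methig1 probe. Since the raw readings of the RNAs did not overlap, these signs were already fixed, and the values show the sizes within a dye only. They compare a female with a male RNA, so sex enters them.

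Averaged by pair, the log2 ratio was 1.37 on array 1 and 1.44 on array 2 for Alx1 and Lrriq1 (mean 1.40 ± 0.0513, SD, n = 2). For Higd1c and Methig1 it was -1.88 on array 1 and -1.71 on array 2 (mean -1.79 ± 0.123, SD, n = 2). By limma, with Benjamini-Hochberg adjustment over all genes, 18 of 20507 genes (0.0878%) had an adjusted p under 0.05. Of these, 9 were higher in Gata2cKO and 9 lower (0.0439% each). At an unadjusted p under 0.05 there were 1470 of the 20507, the number to set beside each such count below. All 4 members are among the 18, and since they were picked for these ratios the count carries no weight of its own. By absolute log2 ratio over all genes tested, Higd1c ranked 5, Methig1 7, Lrriq1 16 and Alx1 26. On median-centred values 0 genes passed (492 at an unadjusted p under 0.05), while the ratios of the 4 genes kept their direction.

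**Figure D2:**
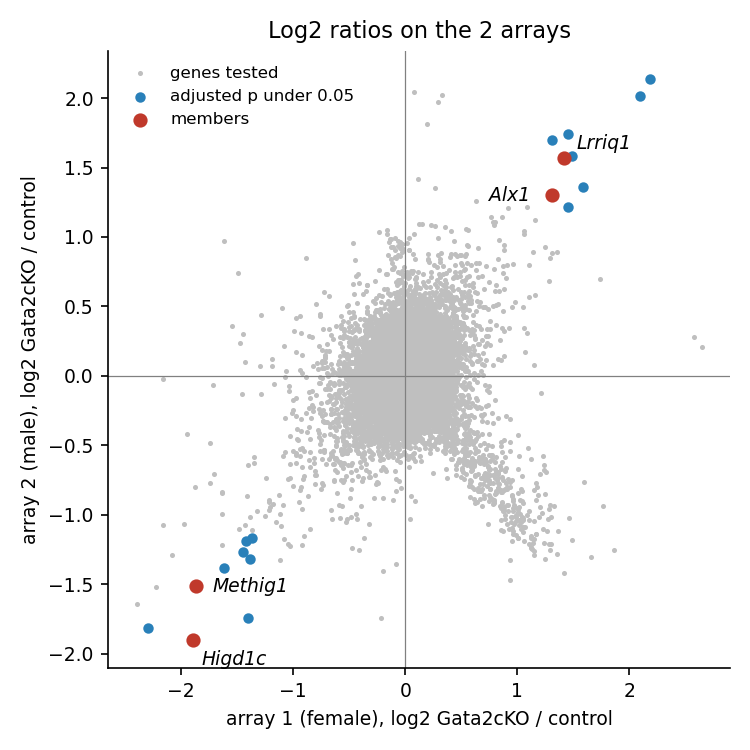
Log2 ratio of Gata2cKO over control on array 1 (x axis, female) against array 2 (y axis, male) for 20507 genes (grey). Blue points are genes with a limma adjusted p under 0.05 and red points are the 4 members, which lie in the corners where both arrays have the same sign.

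In the authors' deposited table, whose values are signed fold changes, the members had the same directions. Alx1 stood at 2.58 (array 1) and 4.15 (array 2) in the authors' deposited table. Lrriq1 variant 1 stood at 5.43 and 5.03 there, ranking 4 among the 39429 probes of the authors' deposited table by mean log2 fold. Alx1 ranked 20 by the same measure in the authors' deposited table. Lrriq1 variant 2 stood at 1 in both columns of the authors' deposited table, the value of 28% of probes in the first column and 28.3% in the second. The Higd1c probe stood at -2.84 and -7.08 and the Methig1 probe at -2.29 and -3.76 in the authors' deposited table. By mean log2 fold these ranked 7 and 31 from the lowest in the authors' deposited table. The columns of the authors' deposited table differed more for Higd1c than the scanner ratios did. How those values were made, and whether they were centred, is unknown here.

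The neighbours of each pair were read from the same coordinates. Within 1 Mb of Alx1 and Lrriq1, 6 other genes were tested, and 0 rose and 0 fell by limma, against 0.0439% of all genes called in each direction. At an unadjusted p under 0.05 there were 2 of the 6, against 1470 of all 20507 genes. The median log2 ratio of the 6 was -0.02, against 0.00284 over all genes. The nearest tested gene on the Alx1 side, Rassf9, was at -0.06 on array 1 and -0.02 on array 2. On the Lrriq1 side the nearest was the amino acid transporter gene Slc6a15, at -0.09 and 0.10. The clone D930019F10Rik, about 734 kb before the Alx1 probe, was the only neighbour at least 1.5-fold different with the same sign on both arrays. Its log2 ratios were -0.85 and -1.10 (mean -0.98 ± 0.177, SD, n = 2; limma adjusted p = 0.0767), opposite in sign to Alx1 and Lrriq1.

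Within 1 Mb of Higd1c and Methig1, 50 other genes were tested, and again 0 rose and 0 fell by limma. At an unadjusted p under 0.05 there were 4 of the 50, against 1470 of all 20507 genes. The lowest of the 50 was Asic1, a proton-gated channel gene, at -0.66, and the highest Nr4a1, a nuclear receptor gene, at 0.38 on the log2 ratio scale. Slc11a2, an iron transporter gene on the opposite strand, has its nearest probe 3.47 kb past the Methig1 probe. It was at -0.01 on array 1 and -0.27 on array 2 (limma adjusted p = 0.884). Mettl7a2, which shares its first base with Methig1, has a probe 22.25 kb before that of Higd1c. It gave log2 ratios of 0.16 and 0.37 (mean 0.26 ± 0.149, SD, n = 2; limma adjusted p = 0.714). The Mettl7a2 probe was thus above 0 on both arrays, while the Higd1c and Methig1 probes were below 0 on both. Its paralog Mettl7a3 was at -0.01, and Mettl7a1 and Mettl7b were not tested because they did not pass the filter.

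**Figure D3:**
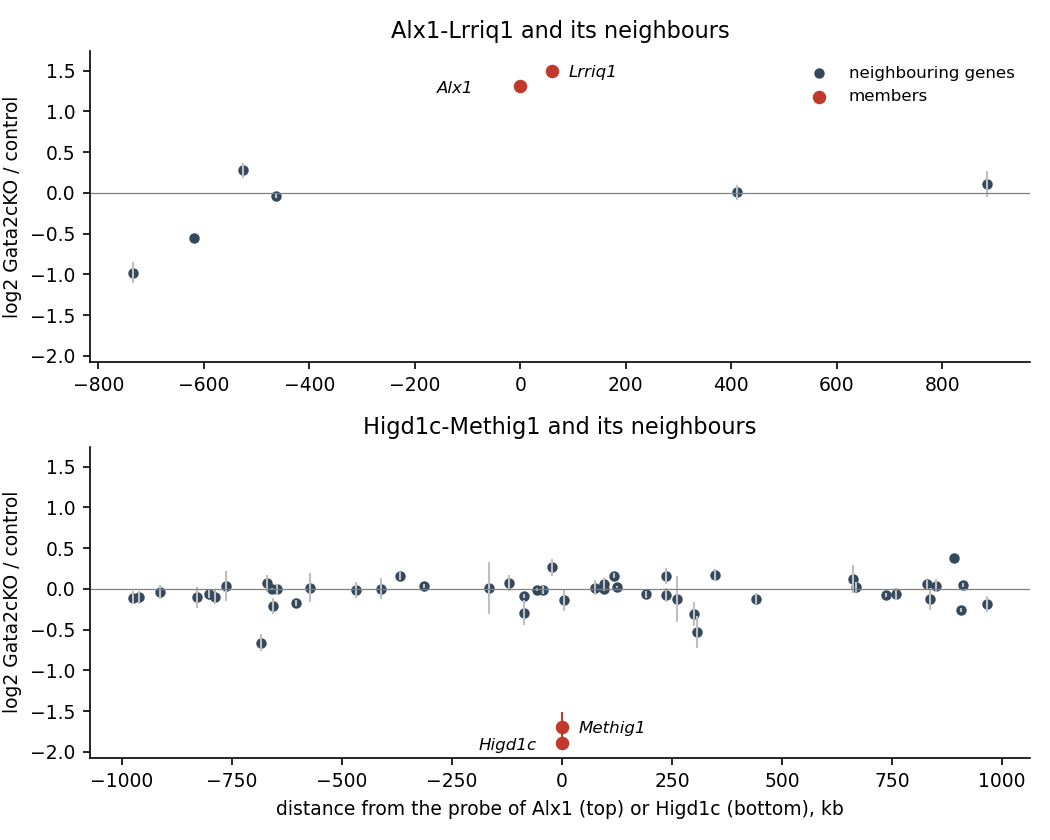
Log2 ratio of Gata2cKO over control (y axis, mean of 2 arrays, with lines joining the values of the arrays) of genes tested within 1 Mb of each pair, by distance in kb from the Alx1 probe (top) or the Higd1c probe (bottom). The members (red), which were picked for these ratios, stand apart from genes on either side (dark), which lie between -0.98 and 0.38.

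Across the genome, 20398 tested genes had a coordinate and formed 20367 pairs of consecutive genes on a chromosome. In 2 of these pairs both genes passed an adjusted p of 0.05, namely Alx1 with Lrriq1 and Higd1c with Methig1. The pairs were picked for this, so the count describes the genome around them and tests nothing. The Higd1c probe also lists a Methig1 transcript, so the values of that pair are not separate measurements of separate genes. In 8 pairs both genes were at least 2-fold different in the same direction, and in 0 pairs were they so in opposite directions. One of the other pairs, singled out after its values were seen, was Nefl and Nefm, genes of neuronal intermediate filaments, at means of -1.09 and -1.18. Nefm differed between arrays, at -1.95 and -0.42. Another of the 8 was Eif2s3y and Ddx3y on chromosome Y, at means of 1.43 each (limma adjusted p = 0.644 and 0.612). Means of this size with such adjusted p-values go with a wide spread between the arrays, so the mean describes neither array well. The labels give both RNAs of an array the same sex. Whether these chromosome Y ratios bear out the labelled sexes was not tested. The gap between the member probes was 60322 bases for Alx1 and Lrriq1 and 420 bases for Higd1c and Methig1.

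Promoter sequence was at hand for Lrriq1 and Methig1 but not for Alx1 or Higd1c, and the 250 bases before each start are shown. The windows come from RefSeq on GRCm38.p6, for Lrriq1 from chr10:103236323-103236572 on the minus strand and for Methig1 from chr15:100352950-100353199 on the plus strand. The Methig1 window also precedes Mettl7a2, which starts at the same base and whose probe had log2 ratios of 0.16 and 0.37.
Lrriq1: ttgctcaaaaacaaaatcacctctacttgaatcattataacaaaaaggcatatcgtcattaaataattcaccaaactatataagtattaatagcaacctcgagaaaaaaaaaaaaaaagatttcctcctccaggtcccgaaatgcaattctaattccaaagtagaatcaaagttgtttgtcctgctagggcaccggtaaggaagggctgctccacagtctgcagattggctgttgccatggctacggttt
Methig1: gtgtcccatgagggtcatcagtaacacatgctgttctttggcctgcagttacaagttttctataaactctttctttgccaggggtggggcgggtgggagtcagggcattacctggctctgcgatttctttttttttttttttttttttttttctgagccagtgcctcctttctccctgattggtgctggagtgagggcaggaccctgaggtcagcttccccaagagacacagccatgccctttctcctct
The GATA motif was searched as AGATAA with its variant TGATAA, and as AGATAG with its further variant TGATAG, on both strands, where overlapping matches were counted separately. It had 0 matches in either window, so no base is in capitals. Of 32851 promoter windows of the same length, 26.5% held at least 1 match. The absence of these letters says nothing of binding elsewhere.

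Genes related to Alx1 were measured beside it. Its relative Alx4, which also acts in head and limb mesenchyme, was at -0.05 on array 1 and -0.08 on array 2 on the log2 ratio scale. Of 16 listed paired-type and related homeobox genes, 10 were tested, and 0 rose and 0 fell (5 at an unadjusted p under 0.05), with a median of -0.03. The members of this list with the largest ratios were negative. Phox2a, a regulator of autonomic neurons, was at -1.63 on array 1 and -0.99 on array 2 (mean -1.31 ± 0.452, SD, n = 2; limma adjusted p = 0.0935). Pitx1, known for hindlimb identity, was at -1.37 and -1.11 (mean -1.24 ± 0.180, SD, n = 2; limma adjusted p = 0.0504), and it passed under several alternatives.

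Genes of motile cilia were listed beside Lrriq1. Of 24 listed, 16 were tested, and 0 rose and 0 fell (0 at an unadjusted p under 0.05), with a median of 0.0134 and a range from -0.21 to 0.26. Tekt1, a tektin of the axoneme, was at 0.13 on array 1 and 0.39 on array 2, and Dnaic2, a dynein intermediate chain gene, at -0.12 and -0.28. The ciliary regulator Foxj1 had opposite signs on the arrays, 0.06 and -0.20, with a mean of -0.07. Of the 5 markers of ciliated epithelium, 4 were tested and Dnah5 did not pass the filter. Their summed normalized signal was 1777 (array 1) and 1935 (array 2) in Gata2cKO RNA, against 1645 (array 1) and 1730 (array 2) in control RNA. Their part in the Lrriq1 value was not tested.

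Genes related to Higd1c were measured in the same way. Of 13 genes of the HIG1 family and the respiratory chain, all were tested, and 0 rose and 0 fell (1 at an unadjusted p under 0.05), with a median of -0.08. Higd1a was at -0.16, Higd1b at 0.05 and Higd2a at -0.02. The lowest was Ndufa4l2, a hypoxia-induced relative of a complex IV subunit, at -0.65 on array 1 and -0.64 on array 2 (limma adjusted p = 0.175). Cox4i2, a complex IV subunit isoform also known from oxygen-sensing cells, was at 0.34 and 0.18. Of 14 genes that respond to low oxygen, 0 rose and 0 fell (0 at an unadjusted p under 0.05), with a median of 0.11. Among them Egln3 was at 0.17 on both arrays and Pdk1 at 0.13 and 0.14.

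Markers of sympathetic and chromaffin cells were lower beside the Higd1c and Methig1 probes. All 12 were lower on both arrays, against 26.2% of all genes (27.0% were higher on both). Their log2 ratios ran from -2.06 to -0.47 with a median of -1.34, and 3 fell over all genes tested by limma (0.0439% of all genes did). The summed normalized signal of the 12 was 17619 (array 1) and 18183 (array 2) in Gata2cKO RNA, against 52274 (array 1) and 37516 (array 2) in control RNA. The 3 were Chgb, a granin of secretory granules, at -2.06, the vesicular monoamine transporter gene Slc18a2 at -1.36, and the neuronal filament gene Prph at -1.35 (limma adjusted p = 0.0381, 0.0403 and 0.0381). Over probe means Slc18a2 was at -0.956 and did not pass (limma adjusted p = 0.0647), while Chgb and Prph still passed. Smooth muscle markers were also lower on both arrays in 5 of 5 cases, with a median of -1.07, and 0 fell (5 at an unadjusted p under 0.05). Myh11, a smooth muscle myosin gene, was at -1.13 ± 0.118 (SD, n = 2; limma adjusted p = 0.0509) and Actg2, a smooth muscle actin gene, at -1.13 ± 0.139 (SD, n = 2; limma adjusted p = 0.0533). Under alternative processing Myh11 passed in 6 settings (limma adjusted p from 7.52e-05 to 0.0495) and Actg2 in 5 (from 0.000101 to 0.0496). The summed signal of the smooth muscle markers was 31048 (array 1) and 26491 (array 2) in Gata2cKO RNA, against 45842 (array 1) and 50781 (array 2) in control RNA. Of the 7 markers of glomus cells, 6 were tested and Olfr78 did not pass the filter, and 0 rose and 0 fell (2 at an unadjusted p under 0.05), with a median of -0.21. Their summed signal was 32102 (array 1) and 36738 (array 2) in Gata2cKO RNA, against 43108 (array 1) and 38141 (array 2) in control RNA. The part of any of these cell types in the Higd1c and Methig1 values was not tested.

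**Figure D4:**
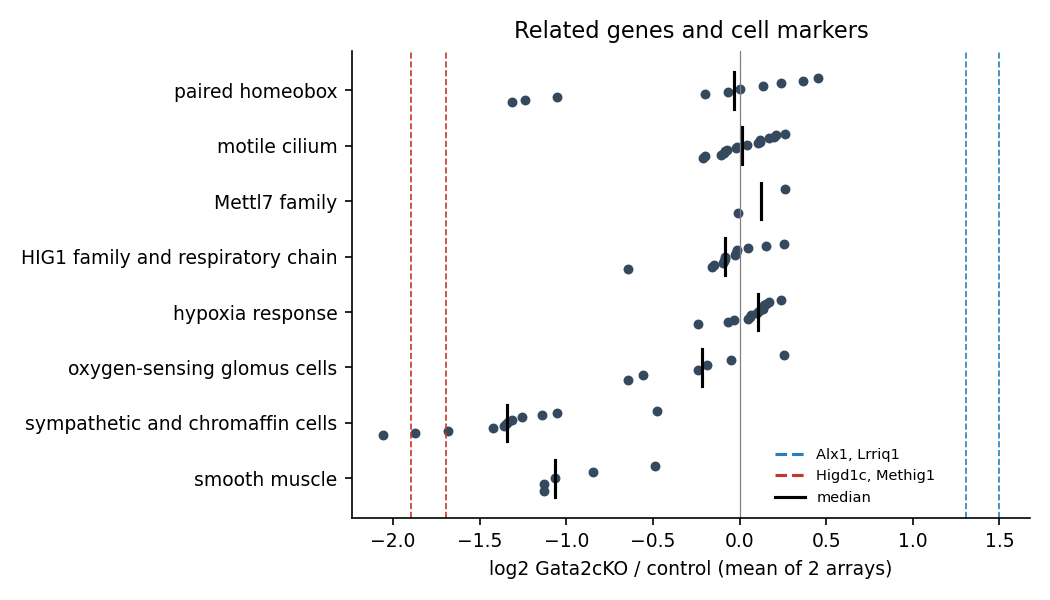
Log2 ratio of Gata2cKO over control (x axis, mean of 2 arrays) of each tested gene in 5 gene lists and 3 marker lists (rows), with the median as a black bar. Dashed lines mark Alx1 and Lrriq1 (blue) and Higd1c and Methig1 (red). The sympathetic and chromaffin markers reach the range of Higd1c and Methig1, and no listed gene reaches that of Alx1 and Lrriq1.

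The genes nearest to each member by their 2 log2 ratios were found among all tested genes with a proper symbol, as the Euclidean distance over the 2 arrays. For Alx1 these were the potassium channel partner gene Kcnip1 (distance 0.170), Dach2 (0.232) and the receptor gene Cntfr (0.331). For Lrriq1 they were Cntfr (0.0717), the vasopressin receptor gene Avpr1a (0.169) and the serotonin receptor gene Htr2b (0.174). For the Higd1c probe they were Chgb (0.415), C1ql3 (0.508) and the granin gene Chga (0.509). For the Methig1 probe they were the neuronal catenin gene Ctnna2 (0.290), the noradrenaline synthesis gene Dbh (0.309) and Chga (0.358). Likeness over 2 arrays is a description of size alone. Cntfr had a negative mean in the authors' deposited table (-0.13), unlike Alx1 and Lrriq1. On array 1 of the authors' deposited table, in log2, Chgb was at -0.02, Chga at -0.25 and Dbh at 0.04. The Higd1c and Methig1 probes were at -1.51 and -1.20 there. On array 2 of the authors' deposited table Chgb, Chga and Dbh were at -2.46, -1.51 and -1.65. C1ql3 and Ctnna2 had means of -3.25 and -2.08 in the authors' deposited table. Over probe means Cntfr was at 0.844 and Ctnna2 at -1.19 (limma adjusted p = 0.0773 and 0.0647), closer to 0 than on their brightest probes.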

How the data were processed

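Agilent two-colour arrays were read with Agilent Feature Extraction 10.7.3.1, per the file headers and the submitters' processing notes. The deposited scanner files give spot and local background intensity, not normalized, and processed intensity that per the file headers was background-subtracted and dye-normalized. They also hold a log10 ratio of red over green, per the file headers, and 0 or 1 flags. The authors' deposited table was treated as a score, a signed fold whose making is not stated. Its columns correlated with the scanner ratios at 0.442 and 0.377 over all probes, which gave its direction.

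Background was corrected by normexp (offset 50), and loess (span 0.3) was run within arrays with control and outlier spots at weight 0. No spot was saturated (0 on both arrays). Ratios were turned to Gata2cKO over control. Probes well above background on both arrays in 1 group were kept (25658), and the brightest probe stood for a gene. Levels shown were further scaled by Aquantile. Names came from RefSeq accessions (26412 of 39429 probes). Ratios were tested against 0 with limma 3.58.1 in R 4.3.3 (two-sided, 1 residual degree of freedom plus a prior of 4.68), with Benjamini-Hochberg adjustment. The number of arrays limits the precision. The fit was tested on simulated data.

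The members and lists were chosen with earlier results of these data known. Named genes were the members and their probes, the nearest neighbours and those at least 1.5-fold on both arrays, up to 4 members of each list past the threshold or else the 2 largest of one sign, and the 3 genes nearest to each member. Alx4, Foxj1, Higd1a, Higd1b, Higd2a, Mettl7a3, Asic1, Nr4a1, Nefl, Nefm, Eif2s3y, Ddx3y, Six2, Foxf1 and Aldh1a2 were added after their values were seen. Marker lists for kidney, skeletal muscle and ducts were computed and are given at the end. Some listed genes are not reported here by name.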

Additional observations from a re-analysis of the deposited data

Results flagged for a closer look

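Slc6a15, the nearest tested neighbour beyond Lrriq1, had opposite signs on the arrays, with a log2 ratio of -0.0866 on array 1 (female) and 0.101 on array 2 (male). The difference between the arrays was not tested, and sex changes together with the dyes.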

How the results depend on the processing

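Of the 11 alternatives, 5 (Aquantile, no filter, all 4 channels, probe means, trended variance) leave the ratios of Alx1, Lrriq1, Higd1c and Methig1 as they are. Under the other 6 these kept their sign, from 1.29 to 1.71, from 1.42 to 2.38, from -2.49 to -1.89 and from -2.07 to -1.51. The pair means ran from 1.37 to 2.05 and from -2.28 to -1.71. Alx1 with Lrriq1 moved by more than the SD to 1.55 with the processed signals of the scanner's software and to 2.05 in the authors' deposited table, and Higd1c with Methig1 to -2.28 with the processed signals and -1.94 with a normexp offset of 16. Without replicate 1 the pair means were 1.44 and -1.71, and without replicate 2 they were 1.37 and -1.88.

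The calls depended far more on the processing than these ratios. Against 18 genes, 173 passed with the processed signals, 41 with an offset of 16, 54 with no filter on detection, 35 with all 4 channels well above background and 375 with a trended and robust variance. With median centring and in the authors' deposited table, 0 genes passed (492 and 972 at an unadjusted p under 0.05), and the cause was not tested. Of listed genes, against 0, 3 passed with the processed signals (among them Phox2a and Pitx1), 2 with no filter (among them Pitx1), 4 with the trended variance (among them Ndufa4l2, Phox2a and Pitx1), and 1 each (Pitx1) with an offset of 16, with all 4 channels and over probe means. Of neighbours, against 0, 2 passed with the processed signals (D930019F10Rik, Mgat4c) and 4 with the trended variance (Asic1 and Galnt6 in addition). Signs turned for Slc6a15 with median centring (-0.00953) and without replicate 2 (-0.0866, against 0.101 without replicate 1), and in the authors' deposited table for Pax8 (-0.13), Upk1b (-0.0149) and Cntfr (-0.13). Medians of lists turned too. In the authors' deposited table this held for urothelium (-0.0149), ducts (-0.13), paired homeobox genes (0.07), motile cilia (-0.03) and ciliated epithelium (-0.0004). With no filter on detection it held for the Mettl7 family (-0.0081, against 0.126) and ciliated epithelium (-0.0135, against 0.0929). It also held over probe means for motile cilia (-0.0028), and without replicate 2 for the HIG1 list (0.02, against -0.14 without replicate 1). Without replicate 1 the hypoxia median was 0.06 and that of glomus markers -0.06. No paired analysis was possible because each array already holds both RNAs and there is 1 ratio per array. Signal over background limits Lrriq1 variant 2, which no channel measured.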

Other observations

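Other marker lists gave these values, and by limma 0 members of any of them passed. Of the 3 kidney markers, 2 were lower on both arrays and 1 higher (3 at an unadjusted p under 0.05). Wnt11 was at -0.57 on array 1 and -0.64 on array 2, and the receptor gene Ret at -0.96 and -0.45. Six2, of nephron progenitors, went the other way, at 0.23 and 1.09. The 3 tested skeletal muscle markers were lower on both arrays (3 at an unadjusted p under 0.05), with a median log2 ratio of -0.83. Over all genes, 26.2% were lower on both arrays and 27.0% higher on both. The arrays differed: the median was -0.47 (array 1) and -1.24 (array 2), and Acta1 was at -0.53 (array 1) and -1.05 (array 2).

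The 4 ureteric mesenchyme markers did not share a direction (2 at an unadjusted p under 0.05). Tshz3 was at 0.61 on array 1 and 0.44 on array 2, and Tbx18 at 0.65 and 0.15. Aldh1a2 had opposite signs, -0.02 and 0.61, and Foxf1 was below 0 on both, at -0.10 and -0.24. The 5 urothelial markers had a median of 0.44 on array 1 and 0.05 on array 2 (2 at an unadjusted p under 0.05). Upk3a was at 0.89 and 0.14, and Upk1b at 0.37 and 0.28. The 5 tested markers of Müllerian and mesonephric ducts had a median of 0.11 (1 at an unadjusted p under 0.05), with Pax8 at 0.29 and 0.32.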
